A study of Mus musculus with 4 samples.

Results

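The genes described here encode the subunits, regulators and assembly factors of the proteasome, the protease complex that degrades proteins marked with ubiquitin. They were taken from the table of gene counts by symbol alone, as the rows made of Psm, a class letter from a to g and a number. The rule found 48 genes among 35976 gene rows, of which 19 encode the 20S core, 17 the 19S regulator, 5 other activators or the inhibitor, and 7 assembly chaperones. A further 9 rows carry a longer Psm symbol (pseudogenes, Psme2b and Psmc3ip among them) and were left aside. Of the 48 members, 46 were abundant enough to be tested, and Psmb8 and Psmb11 were not.

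The 20S core is a barrel of stacked rings, with alpha subunits outside, forming the gate, and beta subunits inside, some of which carry the proteolytic sites. The 19S regulator caps the barrel, recognises and deubiquitylates substrates, and unfolds them with a ring of ATPases. Interferon induces alternative catalytic beta subunits, which form the immunoproteasome, and the PA28 alpha and beta activators, both known for their part in making peptides for MHC class I. When proteasome activity is short, the transcription factor NFE2L1 is known to raise the genes of the whole complex together. Human embryonic stem cells are known for high proteasome activity and for abundant PSMD11, which helps to join the 19S regulator to the core.

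The cells were mouse E14 embryonic stem cells, given in the labels as strain 12910la, grown on gelatin, with serum and LIF, which holds mouse embryonic stem cells in the undifferentiated state. The 2 control libraries carry the genotype wild type. In the 2 knockdown libraries the RNA called Lx8-SINE B2 was targeted by short hairpin RNA from the pSuper puro plasmid. The SINE B2 part of that name is a family of short repeats. One protocol stands for all 4 libraries, with 1000 ng of plasmid, puromycin at 1 µg/ml from 24 h after transfection and 3 days of selection, and which plasmid the control cells received is not stated in the labels. The level of Lx8-SINE B2 itself was not analysed here, so the knockdown rests on the labels.

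Only the knockdown titles carry the word batch1, so knockdown and any batch effect cannot be told apart. The labels do not say whether the libraries within a group are separate cultures. The p-values then measure only how these libraries vary, and that variation may be technical. The libraries held 16383323 to 19867689 counts. The embryonic stem cell markers were abundant in every library, with the 8 of the list summing to 7188 and 7096 counts scaled to the library size (CPM) in the controls and 5208 and 5704 CPM in the knockdown libraries. Of the 8, 7 had a negative log2 fold change, knockdown over control, and 1 a positive one. Dppa5a had 1437 and 1446 CPM in the controls and 664 and 1021 CPM in the knockdown libraries (log2 fold change -0.77, edgeR adjusted p = 0.13). Only Tdgf1, a co-receptor of NODAL signalling, was called, and it fell by 1.19 on the log2 scale (edgeR adjusted p = 0.0438). That call was lost in edgeR with total counts (adjusted p = 0.0585) and without knockdown replicate 1 or 2 (adjusted p = 0.131 and 0.157).

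No proteasome gene passed the test, an adjusted p below 0.05 in edgeR's quasi-likelihood F-test with Benjamini-Hochberg adjustment over all 16209 tested genes. In that comparison 1.43% of all tested genes were called, 142 higher and 90 lower in the knockdown libraries. At an unadjusted p below 0.05 the same edgeR test took 5 members with lower values (Psmb10, Psme1, Psme2, Psmg1 and Psmg2), where the background was 8.58%. It took 1 member, Psmf1, with higher values, where the background was 11.0%. The knockdown libraries lay below both controls for 17 of the 46 members and above both for 4, against a background of 24.6% lower and 27.3% higher. The median log2 fold change, knockdown over control, was -0.11 over the members and 0.01 over all tested genes. Of the members, 36 had a negative and 10 a positive log2 fold change, and with libraries scaled by total counts alone these numbers were 30 and 16. The interval of 40 members lay within a 2-fold difference in either direction, and that of 16 lay within 1.5-fold. Over all 16209 tested genes these counts were 7105 and 1798. Over the 9503 genes at 10 CPM or more, the level of all but the scarcest members, they were 6763 and 1797.

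**Figure D1:**
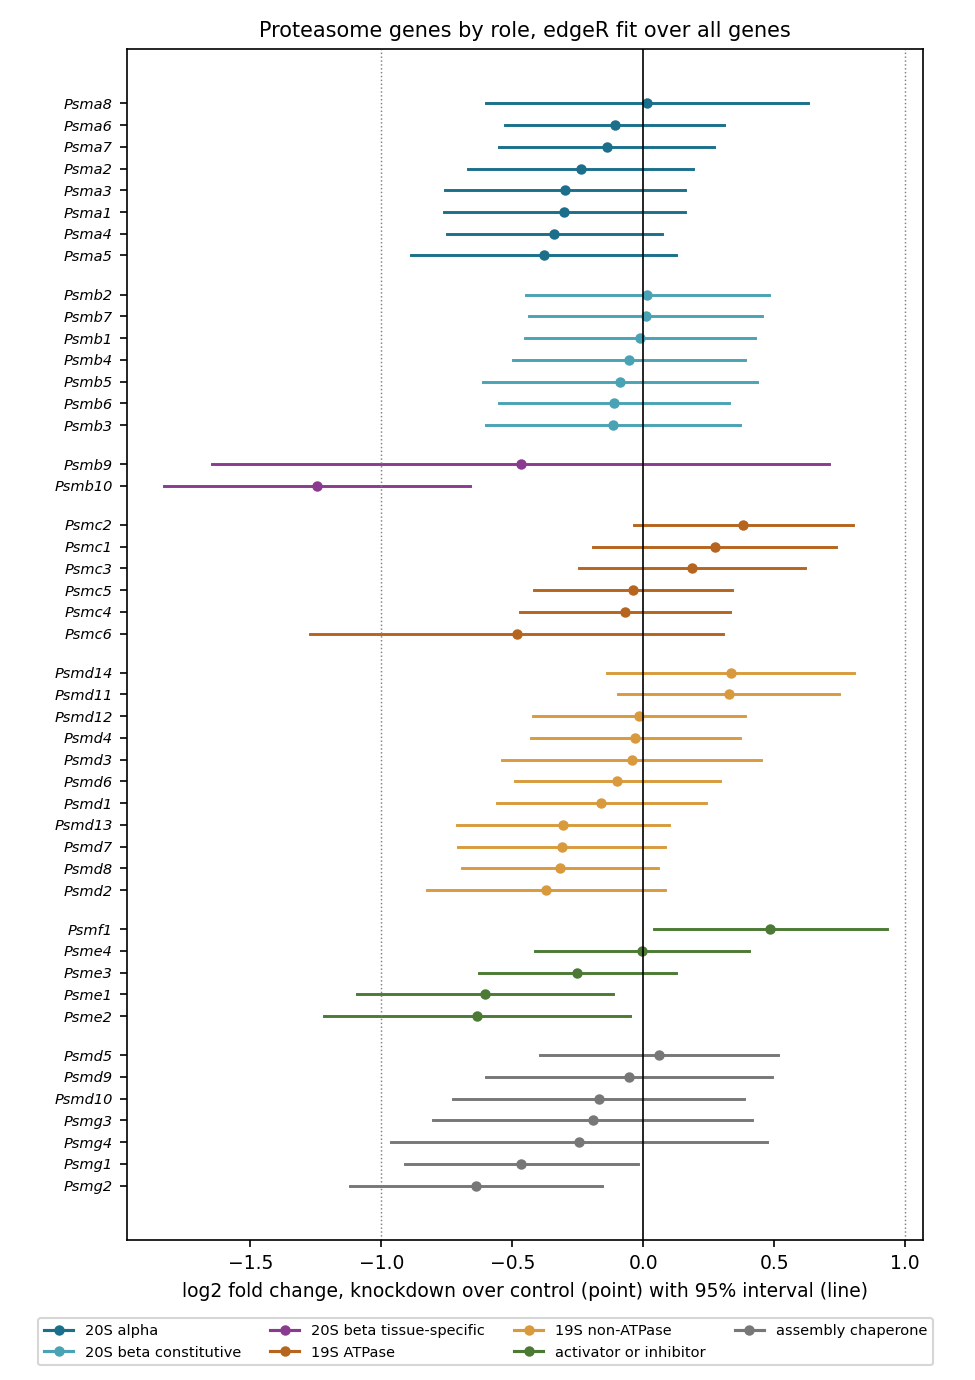
The log2 fold change of each of the 46 tested proteasome genes, knockdown over control, is plotted as a point on the x axis, with its 95% interval as a line, for genes grouped and coloured by role and 2 libraries per group. Dotted lines mark a 2-fold difference, and most genes lie close to 0, with Psmb10 at -1.25 farthest from it.

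All members together summed to 6994 and 6735 CPM in the controls and to 5967 and 6785 CPM in the knockdown libraries, so the groups overlapped. The sum was lowest in knockdown replicate 1, where the members took 0.613% of all counts, while they took 0.666% to 0.682% in the other 3 libraries. Within the knockdown group, 32 of the 46 members (69.6%) had more CPM in replicate 2 than in replicate 1, and 49.5% of all tested genes did. Within the control group, 17 of the 46 (37.0%) had more CPM in replicate 2, and 50.1% of all tested genes did. Differences between libraries of 1 group are thus part of what each role shows.

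**Figure D2:**
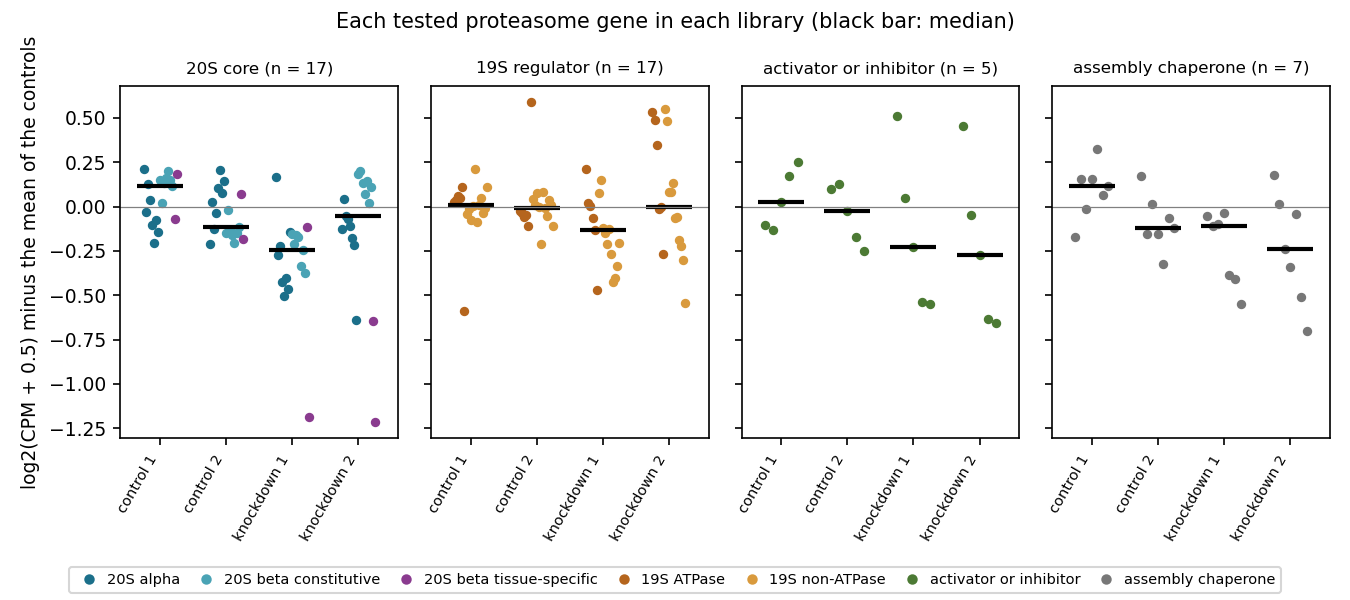
Each point is 1 tested proteasome gene in 1 library, as log2(CPM + 0.5) minus that gene's mean over the 2 controls on the y axis, with libraries on the x axis and 1 panel per division of the complex. The black bars are medians, and for the 20S core the bar lies at -0.24 in knockdown replicate 1 and at -0.05 in knockdown replicate 2.

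The alpha subunits of the 20S core had the lowest median among the constitutive parts of the complex. Over the 8 alpha genes the median log2 fold change was -0.27, from -0.38 for Psma5 to 0.01 for Psma8, and none was called by edgeR. The groups did not overlap for 4 of them (Psma2, Psma3, Psma4 and, by a margin under 1 CPM, Psma5), all with lower values in the knockdown libraries, where 24.6% of all tested genes were lower in this way. Psma5, which encodes an alpha-ring subunit, had 106 and 129.9 CPM in the controls and 106 and 75.2 CPM in the knockdown libraries. Its groups met at control replicate 1 and knockdown replicate 1, and the difference of -0.38 ± 0.22 (log2, SE) had an edgeR adjusted p of 0.382. Psma4, another alpha-ring subunit and the most abundant of them by CPM, had 190.4 and 212 CPM in the controls and 145 and 173 CPM in the knockdown libraries. Both knockdown libraries lay below both controls, with a log2 fold change of -0.34 ± 0.18 (SE) and an edgeR adjusted p of 0.338.

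Psma8, the alpha subunit known from the proteasome of testis germ cells, was present at 23.2 and 17.2 CPM in the controls and 22.5 and 18.2 CPM in the knockdown libraries. Its groups overlapped, with a log2 fold change of 0.01 ± 0.27 (SE). Set against Psma7, the subunit whose place it takes, Psma8 made up 5.82% and 5.16% of the pair's CPM per kilobase in the controls and 7.08% and 5.21% with the knockdown. The 3 germ cell markers of the lists (Sycp1, Sycp3 and Ddx4) summed to 16.4 and 51.6 CPM in the controls and 24.7 and 34.1 CPM in the knockdown libraries, none of them at 0. Control replicate 2 had the highest germ cell sum, most of it from Ddx4 (34.8 CPM), and the lowest Psma8 level. Whether Psma8 goes with the germ cell markers was not tested.

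The 7 constitutive beta subunits differed least. Their log2 fold changes ran from -0.12 for Psmb3 to 0.02 for Psmb2, with a median of -0.05, and the groups overlapped for all 7. For 5 of the 7 the interval lay within a 1.5-fold difference in either direction, as it did for 1797 of the 9503 genes at 10 CPM or more. Psmb4, a structural beta subunit and the most abundant of them by CPM, had 254 and 202 CPM in the controls and 201 and 238 CPM in the knockdown libraries. Psmb3, also structural, had 186 and 159 CPM in the controls and 133 and 186 CPM in the knockdown libraries. Psmb2, likewise structural, had 106 and 86.3 CPM in the controls and 85.9 and 109 CPM in the knockdown libraries. All 7 genes had more CPM in control replicate 1 than in control replicate 2, and more in knockdown replicate 2 than in knockdown replicate 1.

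The 3 constitutive catalytic genes followed the same order. Psmb5, which carries the chymotrypsin-like site, had 156 and 118 CPM in the controls and 107 and 149.9 CPM in the knockdown libraries (log2 fold change -0.09, interval -0.61 to 0.43). Psmb6, with the caspase-like site, had 211 and 172 CPM in the controls and 161 and 193 CPM in the knockdown libraries (log2 fold change -0.11, interval -0.55 to 0.33). Psmb7, with the trypsin-like site, had 164 and 159 CPM in the controls and 139 and 186 CPM in the knockdown libraries (log2 fold change 0.01, interval -0.43 to 0.45). The intervals reached farther on the lower than on the higher side for Psmb5 and Psmb6.

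Their interferon-inducible counterparts were low, and 1 of them, Psmb10, differed most of all members. Psmb10, the inducible trypsin-like subunit that replaces Psmb7, had 32.1 and 24.8 CPM in the controls and 12.1 and 11.9 CPM in the knockdown libraries. Both knockdown libraries lay below both controls, with means of 28.5 ± 5.18 and 12.0 ± 0.20 CPM (SD, n = 2). The fold was 2.37 (log2 fold change -1.25, SE 0.25, interval -1.83 to -0.66), and the edgeR adjusted p of 0.0566 missed the threshold. The gene was called with DESeq2 (adjusted p = 0.00103, background 7.56%), with edgeR's likelihood ratio test (adjusted p = 0.00347, background 8.08%) and with edgeR without a filter on low counts (adjusted p = 0.00143, background 6.47%). It was also called by edgeR with the replicate number as a block (adjusted p = 0.0342, background 4.05%) and without control replicate 2 (adjusted p = 0.0381, background 2.06%). It was not called in the other 8 settings, where the adjusted p ran from 0.0576 (edgeR with a minimum of 1 CPM) to 0.18 (edgeR without knockdown replicate 2) and was 0.0644 with limma-voom.

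Psmb9, the inducible caspase-like subunit that replaces Psmb6, had 1.69 and 1.92 CPM in the controls and 1.62 and 0.973 CPM in the knockdown libraries. That is 16 to 37 counts a library, and the log2 fold change of -0.47 had an interval from -1.65 to 0.71 (edgeR adjusted p = 0.661). Psmb8, the inducible chymotrypsin-like subunit that replaces Psmb5, had 5 and 1 counts in the controls and 3 and 1 with the knockdown. Psmb11, the beta subunit of the thymus, had 1 and 0 counts in the controls and 2 and 0 counts in the knockdown libraries. At this depth no difference in Psmb8 or Psmb11 was detectable.

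**Figure D3:**
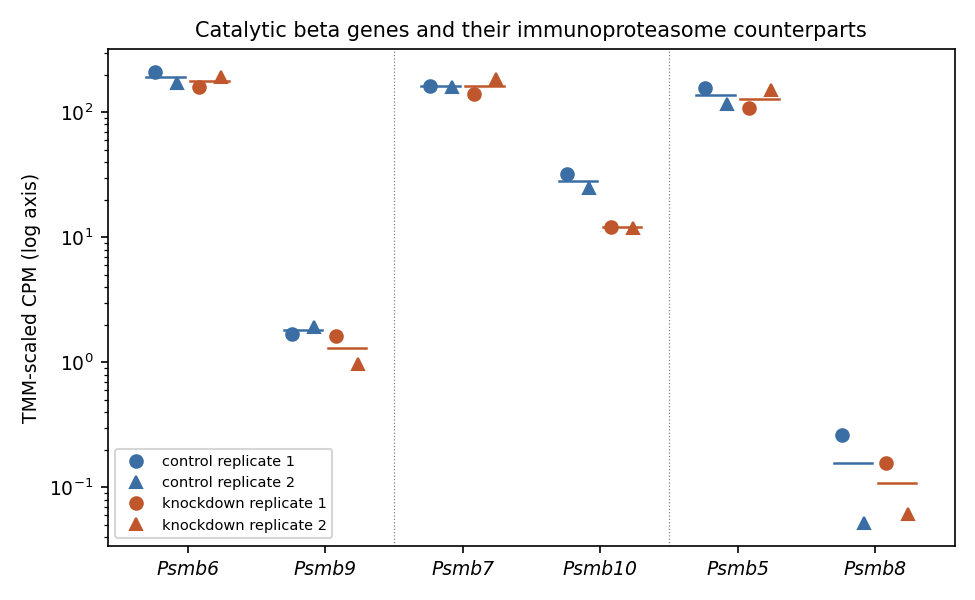
The y axis gives CPM on a log scale and the x axis the 3 constitutive catalytic genes beside their inducible counterparts, with 1 point per library (symbols by replicate, colours by group). The constitutive genes lie above 100 CPM in every library, and among the inducible genes Psmb10 stands at 11.9 to 32.1 CPM, with the knockdown points below the control points.

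Per length, the inducible subunits and Psma8 stood below every constitutive subunit of the core in the controls. In the controls, CPM per kilobase of transcript ran from 51.1 for Psma3 to 204 for Psma7 over the 7 constitutive alpha genes, and from 87.3 for Psmb1 to 239.6 for Psmb6 over the 7 constitutive beta genes. On the same scale the control level was 21.7 for Psmb10, 11.9 for Psma8, 1.34 for Psmb9 and 0.097 for Psmb8. As a share of the pair with Psmb7, Psmb10 made up 14.8% and 12.1% of CPM per kilobase in the controls and 7.17% and 5.35% with the knockdown. Both knockdown shares lay below both control shares. With 2 libraries against 2, an exact two-sided permutation test cannot give a p below 0.333, which is its value here.

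Psmb10 lies on chromosome 8, from 105935728 to 105938392 on the minus strand. The RefSeq window of GRCm38.p6 that covers 250 bases before to 50 after its first base is shown because Psmb10 differed most, beside the windows of Psme1 (the PA28 alpha gene) and Psmb9. Those of Psmb5 and Psmb6 follow as constitutive partners. Windows are at chr8:105938343-105938642 (minus strand), chr14:55578244-55578543 (plus), chr17:34187281-34187580 (minus), chr14:54617946-54618245 (minus) and chr11:70525107-70525406 (plus), in that order, and each is written 5′ to 3′ on the strand of its gene. Capitals mark a match, on either strand, to 1 of 3 motifs searched: TGACNNNGC, the antioxidant response element that NFE2L1 and NFE2L2 are known to bind, the element of interferon regulatory factors (GAAA, any 2 bases, then GAAA again), and CCAAT, the box bound by NF-Y.
Psmb10: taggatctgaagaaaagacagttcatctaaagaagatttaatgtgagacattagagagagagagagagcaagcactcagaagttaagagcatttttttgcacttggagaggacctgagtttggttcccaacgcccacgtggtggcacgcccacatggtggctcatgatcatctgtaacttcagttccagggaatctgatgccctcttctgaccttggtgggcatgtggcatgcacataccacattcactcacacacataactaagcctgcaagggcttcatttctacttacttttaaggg
Psme1: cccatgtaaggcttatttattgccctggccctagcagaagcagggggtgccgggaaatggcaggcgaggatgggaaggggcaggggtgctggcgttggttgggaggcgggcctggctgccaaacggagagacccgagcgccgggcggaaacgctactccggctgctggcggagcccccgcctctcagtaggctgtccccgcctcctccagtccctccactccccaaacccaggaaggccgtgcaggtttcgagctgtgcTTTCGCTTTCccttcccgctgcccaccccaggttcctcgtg
Psmb9: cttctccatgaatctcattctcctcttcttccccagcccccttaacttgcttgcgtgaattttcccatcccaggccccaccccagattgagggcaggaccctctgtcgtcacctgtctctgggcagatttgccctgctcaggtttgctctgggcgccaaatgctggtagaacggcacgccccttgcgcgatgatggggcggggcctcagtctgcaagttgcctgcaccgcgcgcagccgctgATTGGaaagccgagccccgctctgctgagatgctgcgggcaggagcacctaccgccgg
Psmb5: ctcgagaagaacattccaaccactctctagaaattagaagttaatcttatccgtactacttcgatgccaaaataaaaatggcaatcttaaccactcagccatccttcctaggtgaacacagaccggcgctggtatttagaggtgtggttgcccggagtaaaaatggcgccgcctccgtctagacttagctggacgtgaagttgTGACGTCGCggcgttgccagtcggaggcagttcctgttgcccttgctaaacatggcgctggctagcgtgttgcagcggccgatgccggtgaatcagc
Psmb6: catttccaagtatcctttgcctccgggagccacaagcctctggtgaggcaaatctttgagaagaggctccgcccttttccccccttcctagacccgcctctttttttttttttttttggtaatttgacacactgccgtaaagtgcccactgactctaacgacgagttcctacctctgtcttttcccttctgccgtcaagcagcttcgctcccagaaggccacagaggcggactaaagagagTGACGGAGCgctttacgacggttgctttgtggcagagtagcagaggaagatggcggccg

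The Psmb10 window held none of the 3 motifs. Psme1 held 1 match to the interferon regulatory factor element, which began 9 bases after its first base, and Psmb9 held 1 CCAAT box, which began 8 bases before it. In Psmb5 and Psmb6 the antioxidant response element began 47 and 9 bases before the start site on which the window is set. For Psmb6 that site lies downstream of the first base of the RefSeq gene record (70525324), so the match lies inside that record. Of the 48 members, 40 had at least 1 window in the RefSeq table. Of these 40, 6 held TGACNNNGC (15%). Counted by window, 14% of the 43 member windows and 12.4% of all 32851 windows held it. The log2 fold changes of the 6 genes were -0.48 for Psmc6, -0.11 for Psmb6, -0.09 for Psmb5, -0.05 for Psmd9, -0.02 for Psmd12 and -0.004 for Psme4. The interferon regulatory factor element was found in 5 members (12.5%), and in 11.6% of member windows against 3.44% of all windows. The log2 fold changes of these 5 genes were -0.60 for Psme1, -0.24 for Psmg4, -0.12 for Psmb3, -0.05 for Psmd9 and -0.03 for Psmd4. CCAAT was found in 14 members (35%), and in 32.6% of member windows against 37.4% of all windows. A match is a run of letters and not a shown binding site.

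The ATPases of the 19S regulator form the ring that unfolds substrates, and their 6 genes split evenly in sign, with a median log2 fold change of 0.07 and none called. Psmc2 had the highest value of the 6, with 152 and 146 CPM in the controls and 173 and 216 CPM in the knockdown libraries. Both knockdown libraries lay above both controls, and the log2 fold change of 0.38 ± 0.18 (SE) had an edgeR adjusted p of 0.295. Psmc3, the most abundant ATPase gene by CPM, had 256 and 237 CPM in the controls and 247 and 314 CPM in the knockdown libraries. Its groups overlapped, and knockdown replicate 2 was the highest library, as it was for Psmc1 and Psmc2.

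Psmc6, another of the ATPases, varied most between the controls. It had 65.7 and 149 CPM in the controls and 71.5 and 82.3 CPM in the knockdown libraries, so both knockdown libraries lay between the controls. The log2 fold change was -0.48 ± 0.34 (SE, edgeR adjusted p = 0.477). Without control replicate 1 it was -0.96 and called (edgeR adjusted p = 0.0366, background 3.41%), and without control replicate 2 it was 0.18 and not called.

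The 11 non-ATPase subunits of the 19S regulator bind ubiquitin, hold the lid together or remove ubiquitin chains. Their median log2 fold change was -0.10, and the groups did not overlap for 7 of them, 5 with lower and 2 with higher values in the knockdown libraries, against a background of 24.6% lower and 27.3% higher. None was called. Psmd2, a scaffold of the base and the most abundant of all members by CPM, had 628.6 and 539 CPM in the controls and 504 and 399 CPM in the knockdown libraries. Both knockdown libraries lay below both controls, with a log2 fold change of -0.37 ± 0.20 (SE) and an edgeR adjusted p of 0.346. The other 4 with lower, separate groups were Psmd1, Psmd7, Psmd8 and Psmd13, with log2 fold changes from -0.32 to -0.16.

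The 2 with higher, separate groups were Psmd14 and Psmd11. Psmd14, the deubiquitylase of the lid, had 98.8 and 104.6 CPM in the controls and 107 and 149 CPM in the knockdown libraries (log2 fold change 0.33 ± 0.20 SE, edgeR adjusted p = 0.412). Psmd11, the lid subunit known for its abundance in human embryonic stem cells, had 177 and 179.9 CPM in the controls and 198 and 249.7 CPM in the knockdown libraries (log2 fold change 0.33 ± 0.18 SE, edgeR adjusted p = 0.37). In both genes knockdown replicate 1 lay close above the controls and knockdown replicate 2 farther above them. Over the whole 19S regulator the median log2 fold change was -0.04, and it was 0.01 with libraries scaled by total counts alone, so its direction depends on the scaling.

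Ratios taken within a library do not depend on the scaling. The summed CPM of the 6 ATPase genes over that of all 20S core genes was 0.451 and 0.482 in the controls and 0.557 and 0.561 with the knockdown. Both knockdown ratios lay above both controls, with means of 0.466 ± 0.022 and 0.559 ± 0.0024 (SD, n = 2) and an exact two-sided permutation p of 0.333, the smallest this design allows. The same ratio for the non-ATPase subunits was 1.13 and 1.14 in the controls and 1.21 and 1.10 with the knockdown, and overlapped. The libraries reached the ATPase ratio in different ways. In knockdown replicate 1 the core sum was low (1886 CPM, against 2258 to 2396 CPM in the other 3 libraries), and in knockdown replicate 2 the ATPase sum was high (1279 CPM, against 1051 to 1088 CPM). These ratios were chosen after earlier results of these data were known.

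**Figure D4:**
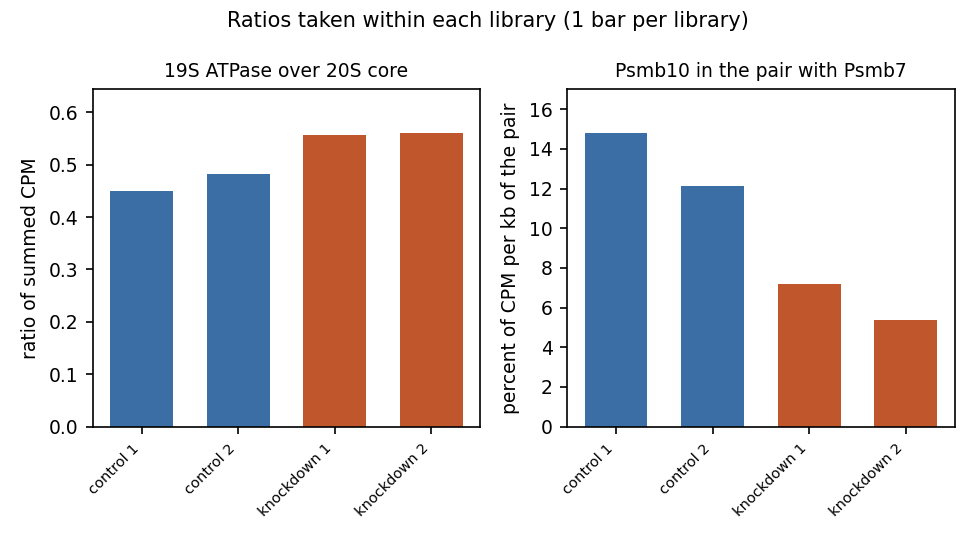
The left y axis gives the summed CPM of the 19S ATPase genes over that of the 20S core genes, and the right y axis the percent that Psmb10 makes up of the CPM per kilobase of Psmb10 and Psmb7, with 1 bar per library and libraries on the x axis. The ratio is 0.451 and 0.482 in the controls and 0.557 and 0.561 with the knockdown, and the share is 14.8% and 12.1% against 7.17% and 5.35%.

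Among the activators, the 2 genes of the interferon-inducible PA28 complex had lower values in the knockdown libraries, and the inhibitor gene had higher ones. Psme1, the alpha subunit of PA28, had 54.6 and 42.8 CPM in the controls and 33.1 and 31.0 CPM in the knockdown libraries (log2 fold change -0.60 ± 0.21 SE, edgeR adjusted p = 0.173). Psme2, the beta subunit, had 35.8 and 25.1 CPM in the controls and 20.3 and 18.9 CPM in the knockdown libraries (log2 fold change -0.64 ± 0.25 SE, edgeR adjusted p = 0.222). In both genes the knockdown libraries lay below both controls, and control replicate 1 was the highest library. The 2 genes lie on chromosome 14 with their 3′ ends 5913 bases apart, and neither was called in any of the 13 other settings that give each gene a value.

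Psme3, the PA28 gamma activator of the nucleus, had 209.5 and 203 CPM in the controls and 176 and 170.4 CPM in the knockdown libraries. Its log2 fold change was -0.25 ± 0.16 (SE, edgeR adjusted p = 0.436), and the knockdown libraries lay below both controls. Psme4, the PA200 activator, had 209 and 249.9 CPM in the controls and 237 and 221 CPM in the knockdown libraries, with overlapping groups and an interval from -0.41 to 0.40 on the log2 scale. Psmf1 encodes PI31, known as an inhibitor of the core in vitro and as an adaptor in the transport of proteasomes. It had 36.2 and 41.8 CPM in the controls and 55.7 and 53.6 CPM in the knockdown libraries. Both knockdown libraries lay above both controls, with a log2 fold change of 0.49 ± 0.19 (SE) and an edgeR adjusted p of 0.219. Over the 5 genes the median log2 fold change was -0.25.

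The assembly chaperones build the core and the base of the 19S regulator and are not part of the finished complex. Per length they were scarcer than the constitutive subunits of the core and the 19S regulator, with 9.07 (Psmd9) to 47.4 (Psmg1) CPM per kilobase in the controls. Over the 7 genes the median log2 fold change was -0.19, none was called, and the groups did not overlap for 3 (Psmg1, Psmg2 and Psmd10), all with lower values in the knockdown libraries, against the same background of 24.6% lower and 27.3% higher. Their sum was 260.3 and 251 CPM in the controls and 217 and 226 CPM in the knockdown libraries, but as a ratio to the core sum it overlapped, at 0.109 and 0.111 in the controls and 0.115 and 0.099 with the knockdown.

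Psmg1 and Psmg2 encode the PAC1 and PAC2 partners that start the alpha ring. Psmg1 had 51.7 and 47.3 CPM in the controls and 37.1 and 34.6 CPM in the knockdown libraries (log2 fold change -0.47 ± 0.19 SE, edgeR adjusted p = 0.236). Psmg2 had 47.3 and 40.1 CPM in the controls and 29.6 and 26.6 CPM in the knockdown libraries (log2 fold change -0.64 ± 0.21 SE, edgeR adjusted p = 0.15). The knockdown values of both genes lay below both controls. Psmg3 and Psmg4 encode a second pair of partners, PAC3 and PAC4, that act on the same ring. Psmg3 had 21.4 and 17.2 CPM in the controls and 18.7 and 15.1 CPM in the knockdown libraries, and Psmg4 had 21.9 and 13.9 CPM in the controls and 13.2 and 17.0 CPM in the knockdown libraries. For both the groups overlapped, with log2 fold changes of -0.19 and -0.24.

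The chaperones of the 19S base, Psmd5, Psmd9 and Psmd10, carry symbols of the regulator. Psmd5 had the highest value of the 7 chaperones and was the most abundant of them by CPM, at 72.3 and 92.1 CPM in the controls and 78.8 and 92.4 CPM in the knockdown libraries (log2 fold change 0.06 ± 0.20 SE). Its groups overlapped. Psmd9 and Psmd10 had log2 fold changes of -0.05 and -0.17. Pomp, the chaperone that completes the core and falls outside the symbol rule, had 97.0 and 73.3 CPM in the controls and 66.0 and 73.5 CPM in the knockdown libraries (log2 fold change -0.29 ± 0.20 SE), with overlapping groups.

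Of 15 partner genes of the proteasome in a list of receptors, shuttle factors and deubiquitylases, none was called, and their median log2 fold change was 0.03. Adrm1, a ubiquitin receptor of the 19S regulator, had 162 and 138 CPM in the controls and 185 and 227 CPM in the knockdown libraries. Its log2 fold change was 0.46 ± 0.19 (SE, edgeR adjusted p = 0.229), with both knockdown libraries above both controls. Shfm1 (Sem1), a small lid subunit, had a log2 fold change of 0.03. Usp14, the deubiquitylase that docks on the base, had 57.2 and 94.9 CPM in the controls and 53.7 and 59.4 CPM in the knockdown libraries (log2 fold change -0.43), and its groups overlapped. The partner with the smallest p was AI314180 (Ecpas), a proteasome scaffold, at 45.7 and 61.6 CPM in the controls and 74.9 and 100.6 CPM in the knockdown libraries (log2 fold change 0.71, edgeR adjusted p = 0.148).

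Nfe2l1, the regulator of proteasome genes named above, had 257 and 269 CPM in the controls and 244 and 276 CPM in the knockdown libraries. Its groups overlapped, with a log2 fold change of -0.02 and an interval from -0.41 to 0.38. Of 12 genes in a list of NFE2L1, its processing and its partners none was called. The list held Nfe2l1 itself, Nfe2l2 and Keap1, and Keap1 had the highest log2 fold change in it (0.80). The median log2 fold change of the 12 was 0.43 (10 positive, 2 negative), against 0.01 over all tested genes. The smallest p in that list was that of Mafg, a small MAF protein that pairs with NFE2L1 and NFE2L2. Mafg had 129 and 132 CPM in the controls and 209.5 and 218 CPM in the knockdown libraries (log2 fold change 0.71, edgeR adjusted p = 0.0714). Maff, another small MAF protein, went the other way, with 19.87 and 18.05 CPM in the controls and 9.05 and 9.67 CPM in the knockdown libraries. Its log2 fold change was -1.02 (edgeR adjusted p = 0.0955), and that of Mafk, also a small MAF protein, was 0.46 (edgeR adjusted p = 0.467). Of 10 genes known as NFE2L2 targets 1 was called, Srxn1, a reductase of oxidised peroxiredoxins, where 1.43% of all tested genes were called. Srxn1 rose from 42.5 and 29.0 CPM to 89.3 and 101.7 CPM (log2 fold change 1.42, edgeR adjusted p = 0.0348). The median of those 10 genes was 0.57, against 0.01 over all tested genes. Of the 10, 8 were positive and 2 negative (Prdx1 at -0.82 and Txn1 at -0.14). Prdx1 had 395.6 and 930.5 CPM in the controls and 391 and 362 CPM in the knockdown libraries, so control replicate 2 stood apart. Its log2 fold change ran from -1.31 to -0.12 when 1 library was left out. Without knockdown replicate 2 Srxn1 was not called (edgeR adjusted p = 0.0659).

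Because Psmb10, Psmb9 and PA28 serve antigen presentation, the genes of MHC class I and interferon signalling were set beside them. Of 14 such genes 11 were tested and 1 was called, with a higher value, where 1.43% of all tested genes were called. Their median log2 fold change was 0.44 (9 positive, 2 negative), against 0.01 over all tested genes. Tap1, a subunit of the peptide transporter, rose from 5.65 and 3.63 CPM in the controls to 19.8 and 22.6 CPM in the knockdown libraries (log2 fold change 2.19 ± 0.33 SE, edgeR adjusted p = 0.0288). It was called in all 13 other settings. Tap1 and Psmb9 start head to head on chromosome 17, with 226 bases between their RefSeq starts and 212 bases of shared exon on opposite strands in GENCODE M21. The labels do not say whether the counting used strand, and reads of that stretch could be split between the 2 genes or left out. Psmb9, on the other side of these starts, had the log2 fold change of -0.47 given above and was not called, and the difference between the 2 genes was not tested.

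**Figure D5:**
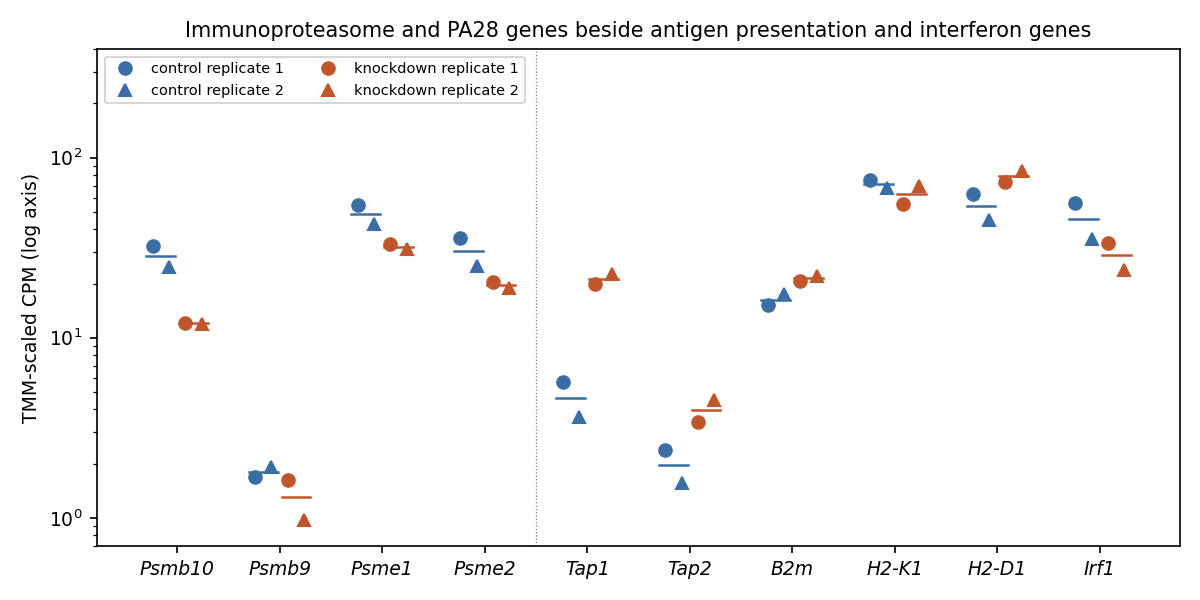
The y axis gives CPM on a log scale and the x axis 4 proteasome genes (left of the dotted line) and 6 genes of antigen presentation and interferon signalling, with 1 point per library. Tap1 lies at 3.63 and 5.65 CPM in the controls and at 19.8 and 22.6 CPM in the knockdown libraries, while the knockdown points of Psmb10, Psme1 and Psme2 lie below their control points.

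Irf1, a transcription factor that carries the interferon signal, had a log2 fold change of -0.67 and was not called (edgeR adjusted p = 0.252). The interferon-induced genes Isg15, Ifit1 and Ifit3 were at 0 to 0.366 CPM in the 4 libraries. The libraries are bulk RNA, so fewer cells of a type and less RNA per cell cannot be told apart. Immune cells express immunoproteasome genes, and the 6 immune markers summed to 23.1 and 17.6 CPM in the controls and 20.6 and 38.6 CPM in the knockdown libraries. Most of that sum came from Cd68, at 16.8 and 11.3 CPM in the controls and 17.0 and 34.4 CPM in the knockdown libraries, and from Cd74, at 5.23 and 5.40 CPM in the controls and 2.67 and 3.04 CPM in the knockdown libraries. The knockdown values of Cd74 lay below both controls, as those of Psmb10 did, and those of Cd68 lay above them. Neither gene was called (edgeR adjusted p = 0.252 for each), and their part in the Psmb10 difference was not tested. Lyz2 was at 0 in all 4 libraries, and Ptprc and Cd3e were among those under 1 CPM in every library. The 8 fibroblast markers summed to 25.0 and 33.2 CPM in the controls and 11.0 and 11.8 CPM in the knockdown libraries. That sum moved in the direction of Psmb10, and its part in the Psmb10 difference was not tested. Of the 8, 2 (Lum and Postn) were at 0 in all libraries and 3 more (Col1a2, Col3a1 and Dcn) under 1 CPM. Most of the sum came from Thy1 and Pdgfrb, which were not called (edgeR adjusted p = 0.0793 and 0.0913).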

How the data were processed

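RNA was measured by mRNA sequencing in 4 libraries. The authors deposited 1 table of raw, unnormalized counts of reads for each gene. Per the submitters' processing notes, the tools named were cutadapt, HISAT2 and featureCounts and the build was mm10; versions, annotation, strand and multi-mapping settings were not given in the sources used here. Multi-mapping settings could lower the counts of members with pseudogenes. Exons of 13 members overlap another gene in GENCODE M21, in 11 cases one on the opposite strand.

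Of 36068 rows, 92 spike-in rows, all at 0, were left out; 27 rows with date-like symbols (0.15% to 0.18% of counts) stayed in. Genes kept by filterByExpr of edgeR 4.0.16 (R 4.3.3) were scaled by TMM and compared, knockdown against control, with edgeR's quasi-likelihood F-test, group as the only term, Benjamini-Hochberg over all 16209 tested genes and a threshold of 0.05. Intervals are 95% and come from the moderated degrees of freedom, and SE is the log2 fold change over the square root of F. CPM per kilobase used the mean length of the principal transcripts of GENCODE M21, and positions the GRCm38.p6 RefSeq table, which has the coordinates of mm10. All 48 members matched both. Total counts were 19867689 and 19044832 (control) and 18592224 and 16383323 (knockdown); at this depth the number of libraries limits precision more than counting error except for the scarcest members.

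Values in every library are given for called genes, for the extremes and the most abundant gene of each role, for the catalytic pairs, the activators, the inhibitor, the PAC chaperones and Psmd14, and from each list for the called genes or the smallest p. Psmd11, Dppa5a, Prdx1, Keap1 and the fibroblast and interferon genes were named beyond that rule after their values were seen. Members and lists were chosen with earlier results of these data known. Alternatives were 3 scalings, 2 filters, DESeq2 1.42.0, limma-voom 3.58.1, the likelihood ratio test, a replicate block, leaving out each library, a threshold of 0.01 and another grouping of the 19S base chaperones. The fit was tested on simulated data. Some genes that the rule takes are left out of the text.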

Additional observations from a re-analysis of the deposited data

How the results depend on the processing

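Over all genes, edgeR called 232; the count was 1717 without a filter on low counts, 1107 with DESeq2, 1310 by likelihood ratio, 656 with the replicate block, 17 at an adjusted p below 0.01, and 153 to 587 when 1 library was left out. The count of proteasome genes called was 0, and it was 1 (Psmb10) under each of DESeq2, the likelihood ratio test, the replicate block and the fit without a filter, and 0 to 1 when 1 library was left out (Psmc6 without control replicate 1, Psmb10 without control replicate 2). Same-numbered libraries did not deviate together (correlation of deviations -0.057 over 16209 genes), so the replicate block rests on a shared number only. The median log2 fold change of the activators and inhibitor was -0.20 with total counts, and that of the assembly chaperones -0.36 with the 19S base chaperones counted in the regulator. Leaving out 1 library moved the medians to between -0.28 and -0.012 for the core, -0.14 and -0.01 for the regulator, -0.33 and -0.23 for the activators and inhibitor, -0.40 and -0.11 for the assembly chaperones and -0.25 and -0.062 for all members. The medians of the core and of all members were nearest 0 without control replicate 1 and knockdown replicate 1 respectively. In those fits 28 and 27 of the 46 tested members were negative, against 36 with all libraries. The lone library of a group was then assumed to vary like the other group. The Psmb10 log2 fold change stayed between -1.47 and -1.05 in the 13 other settings, with adjusted p from 0.00103 (DESeq2) to 0.18 (edgeR without knockdown replicate 2). Over the members, 544 of 598 such values kept their sign. Scaling moved the median of all genes by at most 0.05. With 2 libraries a group, the interval lay within 1.5-fold for 16 of 46 members, and Psmb8, Psmb9 and Psmb11 were limited by their few counts.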
